A study of Mus musculus with 16 samples.

Results

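Open chromatin was compared between SPOP-mutant mouse prostate organoids given dihydrotestosterone (DHT) for 24 h and the same organoids given its solvent, ethanol (EtOH). The comparison takes 8 of the 16 ATAC-seq libraries of the series, chosen by their labels. The 4 libraries named SPOPmut_DHT came from SPOP-mutant organoids with sgNT treated with 10 nM DHT, and the 4 named SPOPmut_EtOH from SPOP-mutant organoids with sgNT treated with EtOH. Both treatments were given in mouse organoid medium without mEGF, a growth factor of the usual medium, so its absence is shared by all groups, as is sgNT, whose meaning the labels do not give. The other 8 libraries, Control_DHT and Control_EtOH (4 each), came from Control (normal) organoids with sgNT under the same treatments and are used here only to ask whether SPOPmut responses were also seen in Control. The SPOP variant, the promoter or Cre that drives it, the age of the mice and the number of organoid lines are not given in the sources used here. The labels do not say whether the 4 libraries of a group are separate cultures, and the p-values therefore cover no more than library-to-library spread, which may be technical.

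DHT is a potent natural androgen. It binds a nuclear hormone receptor that moves to chromatin, mostly at enhancers away from gene starts, and recruits coactivators and pioneer factors such as forkhead proteins. In the prostate this pathway drives luminal differentiation and secretion, and a set of genes that glucocorticoids also switch on, such as Fkbp5, Zbtb16 and Tsc22d3, belongs to its early targets. SPOP brings substrates to a cullin 3 ubiquitin ligase, is recurrently mutated in prostate cancer, and has coactivators of this receptor, Ncoa3 and Trim24, among its reported substrates. ATAC-seq marks accessible DNA by inserting sequencing adapters into it with a transposase, and the authors' peak calls in each library are the measurement here.

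Merging the peaks of these 8 lists wherever they shared 1 bp or more gave 76977 regions, each scored as called or not called in every library. After leaving out 5521 regions seen in 1 library, 71456 remained, with a median width of 653 bp. Lists held 61791, 58800, 66532 and 69644 peaks in the SPOPmut_DHT libraries and 65106, 60661, 67005 and 60819 in the SPOPmut_EtOH libraries, a mean of 64192 ± 4832 against 63398 ± 3166 (SD, n = 4 each), and the groups overlapped (exact permutation test, two-sided p = 0.771). Read counts are not part of these lists, so the depth behind a call is unknown and counting error cannot be given. Markers of prostate epithelium were open in both groups: a region called in all 8 libraries was assigned to 14 of 16 luminal, 16 of 16 basal and 12 of 13 proximal luminal marker genes, against 8 of 16 stromal, 5 of 10 endothelial and 6 of 13 immune ones. Such a region was also assigned to 14 of 14 housekeeping and 18 of 18 cell cycle genes. It was assigned to 13650 of all protein-coding genes, which number 17492 with a known start and another 4395 without. These counts alone therefore do not mark a cell type. No region at all was assigned to 5 of 16 stromal, 2 of 10 endothelial, 6 of 13 immune and 1 of 16 luminal marker genes. These included Tagln, Col1a2 and Lum of stroma, Kdr of endothelium, Cd4, Cd8a and Adgre1 of immune cells, and Spdef of the luminal list. Over all protein-coding genes, 15033 had at least 1 region. In bulk libraries fewer open cells of one type and less open chromatin per cell cannot be told apart.

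More regions were gained than lost with DHT. Of the 71456 regions, 3821 were called in all 4 SPOPmut_DHT and in no SPOPmut_EtOH library (gained, 5.35% of those tested), and 1617 were called in no SPOPmut_DHT and in all 4 SPOPmut_EtOH libraries (lost, 2.26%). A further 47457 (66.4%) were called in all 8. Separation of 4 libraries from 4 has an exact two-sided permutation p of 0.0286, the smallest that 70 arrangements can give, so no single region can pass a correction over all regions and the counts are descriptive.

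**Figure D1:**
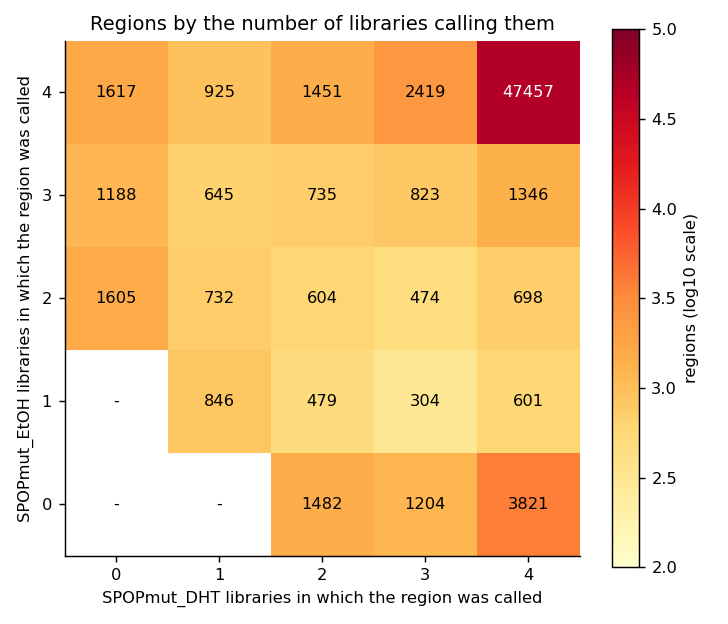
Number of merged regions by how many of the 4 SPOPmut_DHT libraries (horizontal axis) and how many of the 4 SPOPmut_EtOH libraries (vertical axis) called them, with colour on a log10 scale. The corner called in all 8 libraries holds 47457 regions, the gained corner at the lower right 3821 and the lost corner at the upper left 1617.

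The response lay away from gene starts. Only 2.25% of gained and 2.84% of lost regions were within 1 kb of the start of a protein-coding gene, against 23.3% of regions called in all 8 libraries and 17% of all tested regions. Gene bodies held 48.4% of gained and 41.9% of lost regions, against 40.8% of all tested. Outside genes lay 49.3% and 55.2%, against 42.2% of all tested. The median distance to a gene start was 31950 bp for gained, 37945 bp for lost, 14573 bp for regions called in all 8 libraries and 17916 bp for all tested regions. Separated regions were also weaker calls: ranked within each list by the authors' −log10 p, the median percentile was 31.3 for gained regions, 16.4 for lost regions, 61.0 for regions called in all 8 and 43.6 for all tested regions. By chromosome the gained share ran between 4.36% of regions on chromosome 15 and 8.35% on chromosome X, leaving aside chromosome Y with 15 regions. Over all called regions of a library the location differed little: 19.2% ± 0.884 of called regions in SPOPmut_DHT and 19.5% ± 0.550 in SPOPmut_EtOH lay near a gene start, 39.8% ± 0.515 and 39.3% ± 0.332 inside gene bodies, and 41.0% ± 0.370 and 41.2% ± 0.226 outside genes (SD, n = 4 each). None of these 3 differences passed the exact permutation test (adjusted p = 0.6, 0.429 and 0.6), although all 3 did (adjusted p = 0.0286) when every list was shortened to the same number of peaks.

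Among gained regions, those with the highest percentile belonged to loci that opened in both genotypes. A gained region inside Ilrun, a regulator of inflammation and lipid metabolism (mm10 chr17:27759646-27760899), stood at percentiles 97.4, 98.0, 98.1 and 98.7 of the 4 SPOPmut_DHT lists and was not called in any SPOPmut_EtOH list. The next ones lay inside Hpcal1, which encodes a neuronal calcium sensor (chr12:17723755-17725088, median percentile 97.1), inside Aldh6a1 (chr12:84442548-84443542, 96.6) and inside Zbtb16 (chr9:48723474-48724511, 96.2). Each of these 4 was called in all 4 Control_DHT and in no Control_EtOH library. The highest lost regions reached only the middle of their lists, with a median percentile of 58.7 for one 38452 bp from the body of Slc39a10, a zinc importer (chr1:46963961-46964494), 54.2 for one with no gene within 100 kb (chr1:120734730-120735201), 51.9 for one 85998 bp from Amigo2, an adhesion protein gene (chr15:97157836-97158315), and 51.1 for one 57019 bp from Thbs2, a matricellular protein gene (chr17:14608152-14608809). The region near Amigo2 was called in no Control library, while the other 3 were called in all 4 Control_EtOH libraries and in 1, none and none of the Control_DHT libraries, in the order given.

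Few promoters took part. Gained regions overlapped 23 promoter windows of 21 genes and lost regions 11 windows of 11 genes, where a window runs from 250 bases before to 50 after a RefSeq gene start on mm10. The sequences of 4 of these windows are given below because they carry the gained promoter with the highest percentile (Aldh6a1), a gained promoter with a loose palindromic steroid receptor element (Scd3), and lost promoters of a luminal and a smooth muscle marker (Krt18 and Acta2). Scd3 was picked after its values were seen. A window can reach past the region that overlaps it. The gained region of Aldh6a1 reaches up to chr12:84448283 and the lost region of Acta2 up to chr19:34255350, so each covers only the last bases printed. Capitals mark matches to AGAACA, the hexamer bound by this receptor class, or to the loose palindrome GNACANNNTGTNC, on either strand. They were sought over the whole window, and those of Acta2 lie outside its lost region. The sequences run 5′ to 3′ in the direction of the gene, at chr12:84448268-84448567 (minus strand) for Aldh6a1, chr19:44203038-44203337 (plus) for Scd3, chr15:102027966-102028265 (plus) for Krt18 and chr19:34255324-34255623 (minus) for Acta2.
Aldh6a1: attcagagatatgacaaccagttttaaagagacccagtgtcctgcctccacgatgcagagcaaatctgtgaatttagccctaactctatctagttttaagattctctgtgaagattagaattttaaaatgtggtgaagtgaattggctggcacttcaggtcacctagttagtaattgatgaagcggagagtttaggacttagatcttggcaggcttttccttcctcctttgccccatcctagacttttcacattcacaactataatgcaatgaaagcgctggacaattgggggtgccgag
Scd3: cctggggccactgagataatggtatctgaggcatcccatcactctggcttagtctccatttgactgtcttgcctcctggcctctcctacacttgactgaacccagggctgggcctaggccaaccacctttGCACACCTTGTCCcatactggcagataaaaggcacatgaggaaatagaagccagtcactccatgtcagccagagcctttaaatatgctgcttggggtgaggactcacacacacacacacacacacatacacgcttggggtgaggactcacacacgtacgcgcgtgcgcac
Krt18: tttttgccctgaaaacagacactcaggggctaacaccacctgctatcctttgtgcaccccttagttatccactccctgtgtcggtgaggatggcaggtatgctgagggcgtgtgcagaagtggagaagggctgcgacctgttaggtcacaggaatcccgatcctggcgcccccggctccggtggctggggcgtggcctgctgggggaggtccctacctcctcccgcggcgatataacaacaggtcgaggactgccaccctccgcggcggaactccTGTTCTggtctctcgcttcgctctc
Acta2: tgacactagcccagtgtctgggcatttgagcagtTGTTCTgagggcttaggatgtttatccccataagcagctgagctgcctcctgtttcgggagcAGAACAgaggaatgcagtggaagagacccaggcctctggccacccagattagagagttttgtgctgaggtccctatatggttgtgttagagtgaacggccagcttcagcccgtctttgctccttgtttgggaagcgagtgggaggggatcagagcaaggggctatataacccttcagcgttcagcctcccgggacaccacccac

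Aldh6a1, which encodes a mitochondrial dehydrogenase of valine breakdown, had 2, 3, 3 and 3 called regions in SPOPmut_DHT and none in any SPOPmut_EtOH library (difference 2.75, adjusted p = 0.000171, limma). No SPOPmut_EtOH library called any region at it, and its 2 gained regions were called in all 4 Control_DHT and no Control_EtOH library. Scd3, a stearoyl-CoA desaturase gene, had 3 called regions in every SPOPmut_DHT and 1 in every SPOPmut_EtOH library (adjusted p = 2.14e-09), and its gained promoter region was called in no Control library. Krt18, the keratin partner of Krt8 in simple epithelia, had 3, 2, 3 and 4 against 6, 5, 5 and 5 (difference −2.25, adjusted p = 0.0146). The groups did not overlap, but the call was lost without SPOPmut_EtOH replicate 1 (adjusted p = 0.124). Acta2, smooth muscle actin, had 1 against 2 in every library (adjusted p = 1.85e-08). The lost promoter regions of Krt18 and Acta2 were called in no Control library. No gained or lost window held the full palindrome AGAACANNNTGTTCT, which 0.00941% of all 21263 windows did. The loose palindrome was in 2 gained windows (8.7%), no lost window and 0.442% of all windows. AGAACA, which is contained in the full palindrome, was in 26.1% of gained, 45.5% of lost and 16.2% of all windows. Some genes have several overlapping windows, and counted by gene it was in 4 of 21 gained (19%), 5 of 11 lost (45.5%) and 18.5% of all genes. The forkhead motif GTAAACA was in no gained window, in 1 lost window (9.09%) and in 3.01% of all, and the AP-1 motif TGAGTCA in 13% of gained, 9.09% of lost and 4.66% of all windows. These letter matches are descriptions of 23 and 11 whole windows, parts of which can lie outside the gained or lost region, and do not show binding.

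For genes, each region was assigned to the nearest protein-coding gene body within 100 kb, which placed 65639 regions (91.9%), and the called regions of each gene were counted per library. Of 10485 genes with at least 2 regions, 1086 rose with DHT (10.4%) and 547 fell (5.22%) at an adjusted p under 0.05 (limma with a variance trend, Benjamini-Hochberg over all genes). Most changes were small: the median difference over all genes was 0 regions, the mean was 0.0855, and 605 of the 1633 calls rested on a difference of at most 1 region. At the other end 87 genes rose and 23 fell by at least 4 regions, and 35 genes held 5 or more gained regions, against 3 with 5 or more lost ones. The groups did not overlap at 9.99% of genes in the direction of DHT and at 5.02% in the other. Where all libraries of each group had the same count, the adjusted p rests on spread borrowed from other genes, and the exact p of such a gene is 0.0286. Of the 69 called genes picked by the naming rule given below, 50 lost the call under at least 1 other way of counting or fitting. Called genes mentioned outside that rule (Klf15, Hpgd, Aldh1a3, Pmepa1, Srf, Scd3, Bmpr1b, Tgfb2 and Il1b) were not followed through these alternatives. Scaling each library to its total of called regions called 1342 genes higher and 1171 lower, so 53.4% of calls were then higher, against 66.5% without scaling.

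Steroid-induced regulators were among the genes that gained most. Zbtb16, a zinc finger repressor, had 11, 9, 14 and 14 called regions in SPOPmut_DHT and 1, 1, 1 and 2 in SPOPmut_EtOH. Its difference of 10.75 ± 1.19 (SE, adjusted p = 0.000728) was the largest gain among called genes, and 6 of its 7 gained regions lay inside the gene. Fkbp5, a co-chaperone of steroid receptor complexes, had 18, 15, 17 and 18 against 9, 8, 9 and 8 (difference 8.5 ± 0.728, adjusted p = 0.000161). Its 7 gained regions lay between −1.74 and 71.8 kb from its start, 6 of them inside the gene. Tsc22d3, a leucine zipper protein that damps inflammatory transcription, had 16, 15, 17 and 18 against 10, 10, 11 and 10 (difference 6.25 ± 0.661, adjusted p = 0.000579). The lowest SPOPmut_DHT value at each of these genes was in the library with the shortest list, replicate 2, and in none of them did the groups overlap.

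**Figure D2:**
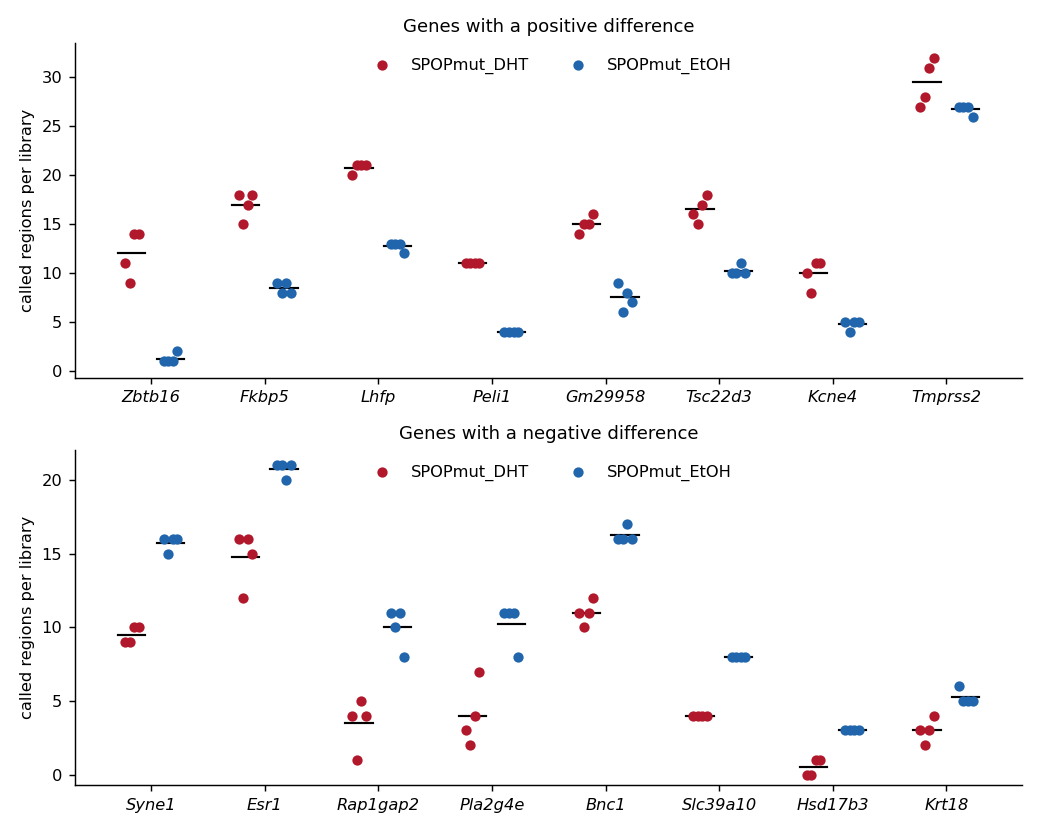
Called regions per library (vertical axis) at 16 genes, with the 4 SPOPmut_DHT libraries (red) left of the 4 SPOPmut_EtOH libraries (blue) and black lines at the group means. Zbtb16 sits at 9 to 14 with DHT and 1 or 2 with EtOH, Hsd17b3 at 0 or 1 against 3, and Tmprss2 is the one gene shown whose groups overlap.

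Steroid-induced early genes changed in the direction of gain. Of 19 tested, 7 rose (36.8%, against 10.4% of all genes) and none fell, with a median difference of 1 region against 0 over all genes and a summed count of 172 to 202 in SPOPmut_DHT and 143 to 154 in SPOPmut_EtOH libraries. Besides Zbtb16, Fkbp5 and Tsc22d3, these were Rgs2, a brake on G protein signalling (6 against 4 in every library), Dusp1, a phosphatase of MAP kinases (12 against 10 in every library), Klf15 (9, 8, 9 and 10 against 7, 7, 8 and 7) and Nfkbia, the inhibitor of NF-kappa-B (11 against 10 in every library). The 2 gained regions of Rgs2 lay 57.0 and 57.9 kb past its start and the one of Nfkbia 34.9 kb past its start, so their assignment rests on distance. Those of Dusp1 lay −22.4 and −11.0 kb from its start, outside the gene. Counting only the body and 10 kb around it left a Dusp1 difference of 0. Counting only peaks with an area of at least 400, the authors' signal value, it was 1.25 and did not pass (adjusted p = 0.18). Sgk1, a kinase (22, 19, 21 and 22 against 19, 19, 20 and 18, adjusted p = 0.143), Per1, a clock repressor (3, 2, 3 and 3 against 3, 3, 3 and 2), and Klf9, a Krueppel-like factor (7, 7, 8 and 8 against 8, 8, 8 and 6), did not pass. Genes were put on this list, as on the others, with earlier results of these data known.

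The androgen response list moved in both directions. Of 27 genes tested, 5 rose (18.5%, against 10.4% of all genes) and 3 fell (11.1%, against 5.22%), with a median difference of 0.5 regions. Besides Zbtb16 and Fkbp5, the risers were Hpgd, a prostaglandin dehydrogenase (13, 13, 14 and 15 against 11, 11, 12 and 11), Aldh1a3, a retinaldehyde dehydrogenase (12, 12, 13 and 13 against 11 in every library), and Tmem50a, a membrane protein gene (2 against 1 in every library). Ndrg1, a stress-responsive gene (11, 12, 12 and 13 against 14, 14, 15 and 15), Pmepa1, a feedback inhibitor of TGF-beta signalling (11, 12, 12 and 12 against 13 in every library), and Srf, serum response factor (3, 3, 3 and 4 against 5, 4, 5 and 5), fell. Tmprss2, the serine protease gene that androgens drive in human prostate, had 27, 28, 31 and 32 against 27, 27, 27 and 26, so the groups overlapped, and its difference of 2.75 ± 1.17 did not pass (adjusted p = 0.186). It still held 2 gained regions, one of them also called in all 4 Control_DHT and no Control_EtOH library.

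Several of the largest gains were at genes of other functions. Sox6, a SoxD transcription factor, had 32, 32, 38 and 39 called regions in SPOPmut_DHT and 24, 25, 25 and 25 in SPOPmut_EtOH (difference 10.5 ± 1.82, adjusted p = 0.00784), with 9 gained regions and 1 lost one. Peli1, a ubiquitin ligase of innate immune signalling, had 11 against 4 in every library, and 7 of its 11 regions were gained. Lhfp, a tetraspan membrane protein gene, had 20, 21, 21 and 21 against 13, 13, 13 and 12 (difference 8 ± 0.348, adjusted p = 2.11e-06). Foxp1, a forkhead repressor, had 67, 63, 71 and 72 against 62, 59, 61 and 58, a gain of 8.25 ± 2.14 (adjusted p = 0.0454). Its call was lost without any one library other than SPOPmut_DHT replicate 2 (adjusted p between 0.0504 and 0.118), as was that of Fggy below (0.069 to 0.111). Rad51b, a recombination repair gene, Fggy, a carbohydrate kinase gene, the predicted gene Gm29958, Cdh13, an unusual cadherin, Smoc2, a matrix protein gene, and Psd3, an exchange factor for small GTPases, rose by 6.75 to 8.5 regions, with adjusted p between 0.00034 and 0.0415. Only 1 of the 6 gained regions of Gm29958 lay inside its body, so its gain rests mostly on assignment by distance. Over regions within 25 kb the difference of Smoc2 was 2.25 and did not pass (adjusted p = 0.212). Foxp1 and Rad51b hold 76 and 81 regions each, so their gains are a small part of what is open there.

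**Figure D3:**
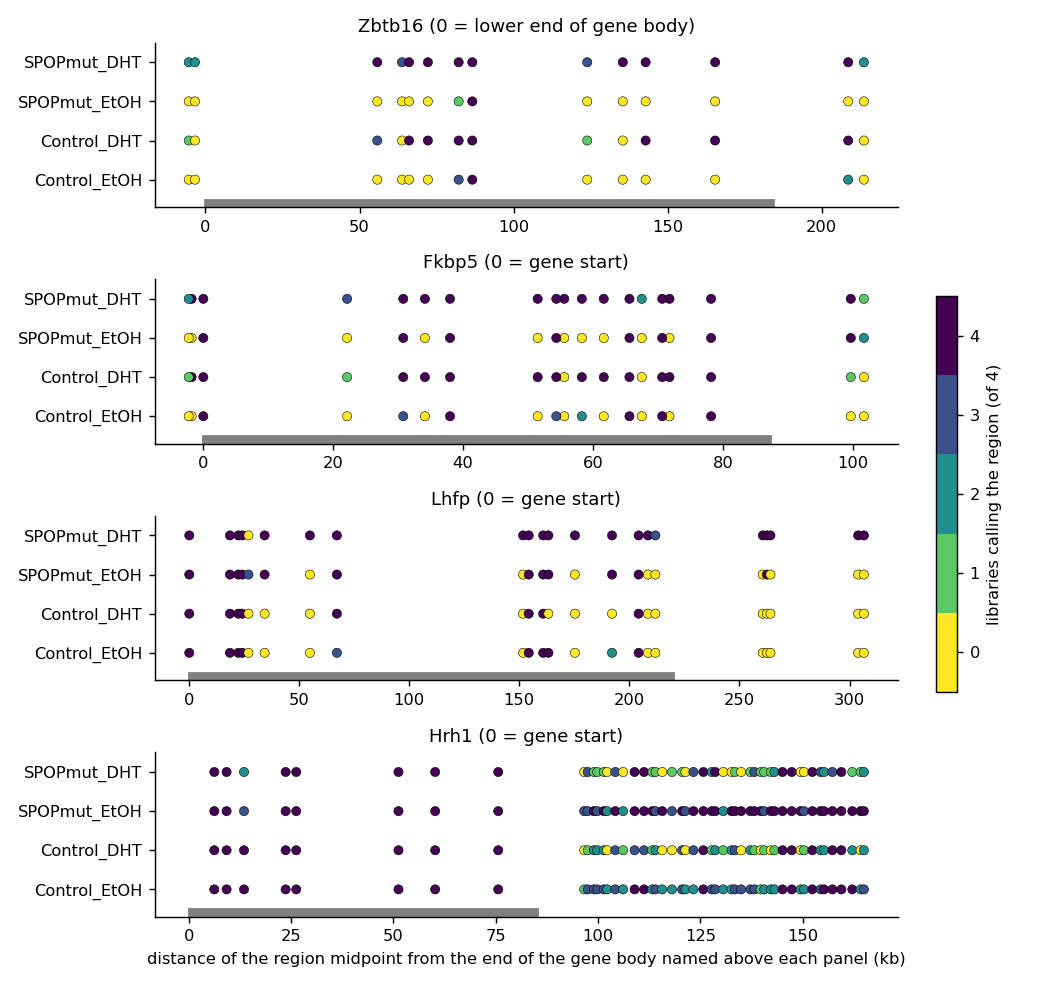
Regions assigned to Zbtb16, Fkbp5, Lhfp and Hrh1 by distance of their midpoint from the named end of the gene body (horizontal axis, kb; grey bar, gene body), with one row per group and colour for the number of the 4 libraries that called the region. The 8 gained regions of Lhfp are dark in SPOPmut_DHT only, and 42 of the 50 regions of Hrh1 lie beyond its body.

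The largest loss of called regions was among those assigned to Hrh1, the histamine H1 receptor gene, with 31, 15, 27 and 29 in SPOPmut_DHT and 47, 45, 50 and 43 in SPOPmut_EtOH (difference −20.75 ± 3.70, adjusted p = 0.0093). It came from a dense block rather than from the gene. Regions were counted for the nearest gene body only, so any part of the block nearer to another gene is not in these counts. Of its 50 regions, 42 lay 11.2 to 79.6 kb beyond the gene body at a median spacing of 1.96 kb, and these gave 24, 8, 19 and 21 calls against 39, 38, 42 and 35. Inside the body the counts were 7, 7, 8 and 8 against 8, 7, 8 and 8. Counting only regions in the body and 10 kb around it left a difference of −0.25 (adjusted p = 0.915). Without SPOPmut_DHT replicate 2, the lowest library, the difference over all 50 regions was −17.25 (adjusted p = 0.00161). With lists of equal length it was −5.25 and did not pass (adjusted p = 0.11), nor did it over regions within 25 kb (−4.25, adjusted p = 0.083).

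Other genes fell by fewer regions, with the lost regions inside the body at some and outside it at others. Syne1, which encodes the nuclear envelope protein nesprin-1, had 9, 9, 10 and 10 called regions in SPOPmut_DHT against 16, 15, 16 and 16 in SPOPmut_EtOH (difference −6.25 ± 0.369, adjusted p = 1.49e-05), and its 3 lost regions were called in no Control library. Esr1, the oestrogen receptor alpha gene, had 16, 12, 16 and 15 against 21, 21, 20 and 21 (difference −6 ± 0.935, adjusted p = 0.00469), and the groups did not overlap. It lost 2 regions inside the gene and 1 outside, and its call was lost when the replicate number entered the fit as a block (adjusted p = 0.0506). Stard13, a GTPase-activating protein gene, had 26, 27, 27 and 27 against 33, 32, 32 and 34, with 6 lost regions, all inside the gene. Counting only peaks with an area of at least 400, the authors' signal value, its difference was −1.25 and did not pass (adjusted p = 0.398), nor did it with lists of equal length (−5, adjusted p = 0.0515). Rap1gap2, which inactivates the GTPase Rap1, had 4, 1, 5 and 4 against 11, 10, 11 and 8 (difference −6.5 ± 1.06, adjusted p = 0.00599). At Slc39a10, 4 regions were called in every SPOPmut_DHT library and 8 in every SPOPmut_EtOH library (adjusted p = 1.67e-09), and 1 of its 4 lost regions lay inside the gene. Rgs3, a G protein signalling regulator, Pla2g4e, a phospholipase A2 gene, Tgm3, a transglutaminase gene, the transcription factor Zfhx3, Gas7, Bnc1, a zinc finger gene of basal epithelium, and Tmem135 fell by 5.25 to 6.75 regions, with adjusted p between 0.000181 and 0.0499. None of the 30 regions of Rgs3 was lost by the strict count, and Zfhx3 had 25, 24, 29 and 30 against 34, 33, 33 and 31, a fall of 5.75 ± 1.53 at an adjusted p of 0.0499. The calls of Rgs3 and Zfhx3 were each lost without any one of 6 libraries (adjusted p up to 0.107 and 0.18).

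Enzymes that make or break androgens were split. Hsd17b3, which forms testosterone, had 0, 0, 1 and 1 called regions in SPOPmut_DHT and 3 in every SPOPmut_EtOH library (difference −2.5 ± 0.275, adjusted p = 0.000714), at regions 77.9 and 78.7 kb from its start where 2 were lost. With lists of equal length its difference was −1.25 and did not pass (adjusted p = 0.0605). Srd5a2, which turns testosterone into DHT, had 14, 13, 14 and 14 against 15 in every library (adjusted p = 0.0137). Hsd17b6, which forms DHT from a reduced metabolite, had 5 against 4 in every library and rose. Of the 7 tested genes of this list, 14.3% rose and 28.6% fell, against 10.4% and 5.22% of all genes. The other 4 did not pass, and the median difference of the list was −0.5.

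Basal and luminal markers moved little as lists, with a median difference of 0 regions in each and means of 0.233 and 0.214. The lists were not tested against each other. None of 15 basal marker genes tested passed in either direction, where 10.4% of all genes rose and 5.22% fell. Krt5 had 4 in every SPOPmut_DHT library against 4, 4, 4 and 3. Trp63, the basal master regulator, had 22, 22, 23 and 21 against 21, 19, 21 and 20 (adjusted p = 0.1). Of 14 luminal markers 2 rose and 2 fell, 14.3% each against 10.4% and 5.22% of all genes. Cd24a (6 in every SPOPmut_DHT library against 5, 4, 5 and 4) and Grhl2, an epithelial transcription factor (27, 28, 27 and 29 against 25, 24, 25 and 22), rose, and Krt18 and Esrp1, an epithelial splicing regulator (4, 5, 5 and 4 against 6 in every library), fell. Each of these luminal calls was lost when the replicate number entered the fit as a block. The gained region of Cd24a lay 83.4 kb and the lost region of Esrp1 93.4 kb from the start, outside the bodies. The luminal factors Foxa1 (13, 12, 13 and 12 against 12 in every library) and Hoxb13 (6, 4, 4 and 5 against 3, 3, 4 and 4) did not pass. Summed called regions overlapped between SPOPmut_DHT and SPOPmut_EtOH for luminal markers (107 to 114 and 103 to 113), basal markers (190 to 212 and 188 to 208), stromal markers (19 to 27 and 23 to 28) and endothelial markers (38 to 46 and 43 to 48). For the 3 tested immune markers the sums were 12 to 15 with DHT and 11 or 12 with EtOH, and Ptprc, the pan-leukocyte CD45 gene, rose (7, 7, 8 and 8 against 5 in every library) at 3 gained regions 135 to 184 kb past its start, outside its body. What other cell types contribute to these values was not tested.

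Secretory genes of differentiated prostate were mostly without any region: 7 of 10 had none, including Pbsn, the probasin gene. Among the 3 tested, Azgp1, a secreted zinc-binding glycoprotein gene (5, 4, 4 and 5 against 3, 1, 3 and 2, adjusted p = 0.0297), and the defensin gene Defb50 (3 in every SPOPmut_DHT library against 1, 1, 1 and 0, adjusted p = 0.000581) rose, and Sbp, the spermine-binding protein gene, had 6 called regions in all 8 libraries. Psca, a proximal luminal and prostate stem cell antigen, rose to 3 in every SPOPmut_DHT library, against 2 in every SPOPmut_EtOH library. It was the only one of 10 proximal luminal markers that passed, a share of 10% against 10.4% of all genes higher.

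Calls among partners of the receptor and reported SPOP substrates are read here against 10.4% of all genes higher and 5.22% lower. Of 23 partners and co-regulators tested, 8.7% rose and 4.35% fell, with a median difference of 0. Ncoa1, a steroid receptor coactivator (7, 7, 10 and 10 against 4, 3, 5 and 5, adjusted p = 0.0222), and Grhl2 rose, and Esr1 fell. Ncoa3 (8, 8, 7 and 8 against 7, 7, 8 and 8) and Trim24 (6, 6, 7 and 7 against 6, 6, 6 and 5) did not pass, nor did the glucocorticoid receptor gene Nr3c1 (9, 9, 10 and 9 against 8, 8, 10 and 10). Of 14 genes tested on the SPOP list, 14.3% rose and none fell. Those that rose were Dek, a chromatin protein gene (3 in every SPOPmut_DHT library against 1, 1, 1 and 2), and Spop itself (7 against 6 in every library). The gained region of Spop lay inside the gene 5.19 kb past its start and was also called in all 4 Control_DHT and no Control_EtOH library. The call of Spop was lost with lists of equal length (difference 0.25, adjusted p = 0.918), with the peak area of 400 (0, adjusted p = 1), by covered base pairs (0.0371 on the log2 scale, adjusted p = 0.618) and with scaling to library totals (0.901, adjusted p = 0.0598). Mecom, a zinc finger oncogene, had 29, 28, 31 and 29 against 26, 26, 28 and 26 (adjusted p = 0.0657).

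The signalling and other lists below each held few calls, to be read against 10.4% of all genes higher and 5.22% lower. Their shares were not tested against each other. In the TGF-beta and BMP list 3 of 22 genes rose (13.6%) and 2 fell (9.09%). Those that rose were the inhibitors Nog (2 against 1 in every library) and Skil (3 against 2 in every library) and the receptor gene Bmpr1b (6, 6, 7 and 8 against 5, 5, 4 and 4). The gained regions of Nog and Skil lay −60.6 and 28.2 kb from their starts, and neither gene had a region inside its body, so their assignment rests on distance. The ligand genes Tgfb2 (7, 7, 8 and 8 against 9 in every library) and Tgfb3 (2 in every SPOPmut_DHT library against 4, 4, 4 and 3) fell. In the Wnt, Notch and Hedgehog list the receptor gene Notch2 (16, 16, 17 and 17 against 14, 13, 15 and 14) rose, and the ligand gene Wnt5a (7, 8, 7 and 7 against 9, 10, 10 and 10) and the co-receptor gene Lrp6 (5 in every SPOPmut_DHT library against 7, 7, 8 and 6) fell, of 18 tested (5.56% higher and 11.1% lower). The lost regions of Wnt5a lay 58.6 and 119 kb and those of Lrp6 131.1 and 131.7 kb from the start, outside the bodies. With the peak area of 400 Lrp6 was called in the opposite direction (1.5, adjusted p = 0.00913). Of 15 interferon and inflammation genes 4 rose and none fell, 26.7% against 10.4% of all genes. They included Nfkb1 (17, 16, 18 and 18 against 11, 13, 13 and 13), Nfkbia and Il1b (7 in every SPOPmut_DHT library against 6, 5, 6 and 6). Clock genes gave 1 of 16 in each direction, Nfil3 (9, 9, 10 and 11 against 7, 7, 7 and 6) higher and Bhlhe41 (5, 4, 4 and 5 against 7, 6, 7 and 7) lower. Fos rose alone among 20 AP-1 and immediate early genes (11, 11, 12 and 12 against 10 in every library). In the cell cycle list Cdk6 (19, 18, 19 and 19 against 18, 16, 17 and 17, adjusted p = 0.0499) rose and Ccnd1, cyclin D1 (8 against 9 in every library), fell. The lost region of Ccnd1 lay 52.9 kb from its start, and over regions within 25 kb its difference was 0. The fatty acid genes Elovl6 (8, 8, 10 and 10 against 6 in every library) and Acsl4 (8, 7, 10 and 9 against 6, 5, 6 and 4) rose among 19 lipid genes. Housekeeping genes, taken as a check, gave 2 of 12 higher (16.7%), Ywhaz and Hprt, and none lower. The lists of seminal vesicle and urothelium (4 tested) and endothelium (5 tested) gave no call, the neuroendocrine list 1 lower of 5, Ncam1 (0 in every SPOPmut_DHT library against 1, 2, 3 and 1), and the stromal list 1 lower of 6, Acta2.

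Control libraries, which played no part in choosing the gained and lost regions, moved the same way in part. Control_DHT libraries called 52.8%, 50.7%, 58.5% and 53.4% of the 3821 gained regions, and Control_EtOH libraries 10.7%, 6.36%, 10.9% and 9.74%, a mean of 53.9% ± 3.33 against 9.42% ± 2.10 (SD, n = 4 each). For the 1617 lost regions the shares were 27.4% ± 2.70 in Control_DHT and 58.2% ± 6.17 in Control_EtOH. Neither pair of groups overlapped, and both differences had an exact permutation p of 0.0286 (two-sided, adjusted over the 2 sets to 0.0286), the smallest that 4 against 4 libraries can give. At the level of single regions, 1235 gained regions (32.3%) were called in all 4 Control_DHT and no Control_EtOH library, 1418 (37.1%) were called in no Control library and 209 (5.47%) in all 8. Of the lost regions, 213 (13.2%) were called in no Control_DHT and all 4 Control_EtOH libraries, 514 (31.8%) in no Control library and 299 (18.5%) in all 8. No gained region had the opposite pattern in Control, and no lost region did.

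**Figure D4:**
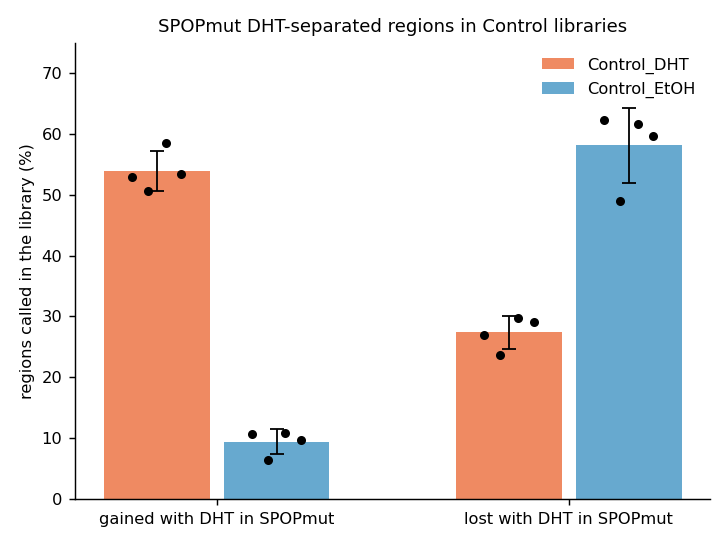
Share of the SPOPmut gained and lost regions that each Control library called (vertical axis, %), with Control_DHT left of Control_EtOH. Points are the 4 libraries, bars their mean and whiskers the SD, and Control_DHT stands at 53.9% against 9.42% for gained and at 27.4% against 58.2% for lost regions.

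Whether a gene responded differently in the genotypes was tested as an interaction over regions merged from all 16 lists, so counts here can differ slightly from those above. Of 11212 genes, 506 had a higher DHT difference in SPOPmut than in Control (4.51%) and 193 a lower one (1.72%) at an adjusted p under 0.05 (limma). Among the 1633 genes called in SPOPmut, 456 also passed this test and 1177 did not, which does not show that those 1177 responded alike.

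Lhfp stood apart most clearly. With DHT and EtOH it had 20, 21, 21 and 21 against 13, 13, 13 and 12 called regions in SPOPmut, and 8 in every library against 9, 9, 10 and 9 in Control (interaction 9.25 ± 0.435, adjusted p = 9.91e-10), and all 8 of its gained regions were called in no Control library. Kcne4, a potassium channel subunit gene, had 10, 8, 11 and 11 against 5, 4, 5 and 5 in SPOPmut, and 1 against 2 in every Control library (interaction 6.25, adjusted p = 4.2e-05). None of its 11 regions in SPOPmut lay inside the gene, and its gained regions were 22.8 to 91.3 kb from its start. Counting only the body and 10 kb around it left a SPOPmut difference of 0.5 (adjusted p = 0.332). Mipol1, a coiled-coil protein gene, rose to 18, 19, 19 and 21 in SPOPmut_DHT, against 12, 13, 13 and 13 in SPOPmut_EtOH, with 8 in every Control_DHT library and 10, 7, 7 and 7 in Control_EtOH. Sox6 had a difference of 10.5 regions in SPOPmut and 3.75 in Control (interaction 6.75 ± 1.82, adjusted p = 0.0437).

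In the other direction, Bnc1 lost regions in SPOPmut (10, 9, 10 and 11 against 15, 15, 16 and 16), while Control had 12, 11, 12 and 12 against 10, 10, 12 and 13 (interaction −6, adjusted p = 0.000583). Rap1gap2 (interaction −5.75, adjusted p = 0.0484) and Nrp2, a neuropilin receptor gene (−4.75, adjusted p = 0.0355), were also lower in SPOPmut, although the difference of Nrp2 within SPOPmut itself, −4, missed the threshold (adjusted p = 0.0538). Hsf2bp, a meiotic recombination gene, had a smaller difference in SPOPmut (24, 24, 26 and 26 against 22, 19, 23 and 20) than in Control (28, 27, 29 and 28 against 18, 17, 18 and 19, interaction −6, adjusted p = 0.00586). Trp63 likewise had 23, 22, 23 and 21 against 21, 19, 21 and 20 in SPOPmut, and 28, 26, 30 and 29 against 23, 20, 22 and 21 in Control (interaction −4.75, adjusted p = 0.0375). For the steroid-induced genes no difference was established: the interaction was 4.75 for Zbtb16 (adjusted p = 0.0729), 1.75 for Fkbp5 (0.35) and −0.5 for Tsc22d3 (0.963), with mean Control differences of 6, 5.75 and 6.75 regions.

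**Figure D5:**
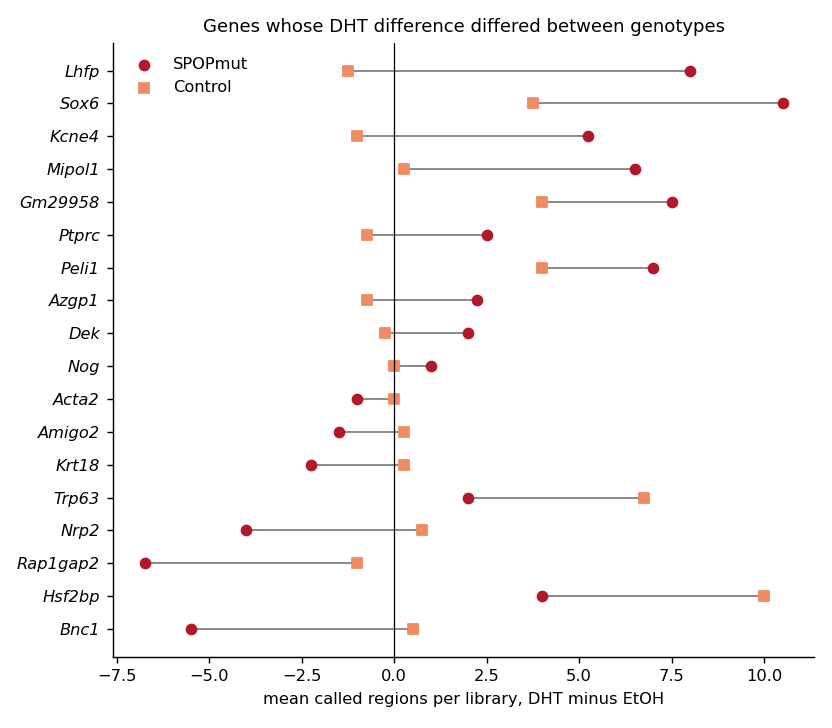
Mean called regions per library with DHT minus EtOH (horizontal axis) in SPOPmut (red circles) and Control (orange squares) for the 18 named genes whose difference passed the interaction test, counted over regions merged from all 16 lists. Lhfp is at 8 in SPOPmut and −1.25 in Control, and the differences of Hsf2bp and Trp63 are positive in both genotypes and larger in Control.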

How the data were processed

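ATAC-seq peak lists of 16 mouse prostate organoid libraries were used, 8 of them for the comparison itself. Per the submitters' processing notes the tools were Bowtie2 2.3.4.1, SAMtools 1.8 and Genrich (version not stated), with build mm10, and one list was deposited per library. The −log10 p of each peak, deposited by the authors, only ranked peaks within a list. The peak signal (Genrich's area value), as deposited by the authors, only served a stricter threshold of 400. Depth is unknown, and pooled signal tracks were not used here.

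Regions called in at least 2 of the 8 libraries were tested. Gene bodies, starts (17492 protein-coding genes; for another 4395 both ends were used, as distances from the lower end) and promoter sequences came from RefSeq on GRCm38.p6. Where several bodies covered a midpoint one gene was taken, so overlapping genes are uncertain. Genes with equal counts in every library were not called and stayed in the correction. All tests are two-sided, with Python 3.11.15, NumPy 2.4.6, pandas 2.3.3, SciPy 1.17.1, Matplotlib 3.10.9, R 4.3.3 and limma 3.58.1. The fit was tested on simulated data.

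Named genes were, with adjusted p under 0.05, the 12 largest differences per direction whose groups did not overlap and the 4 largest interactions per direction, together with the 3 smallest p of each of 22 lists (379 entries, all matched), the 4 strongest separated regions per direction and 22 fixed names. A few genes are not reported here. Members, lists and names were chosen with earlier results of these data known.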

Additional observations from a re-analysis of the deposited data

Results flagged for a closer look

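For 18 named genes the DHT effect differed between genotypes by the interaction test (limma, adjusted p under 0.05). The effect in SPOPmut minus that in Control, in called regions, was 9.25 for Lhfp, 6.75 for Sox6, 6.25 for Mipol1, 6.25 for Kcne4, 3.5 for Gm29958, 3.25 for Ptprc, 3 for Peli1, 3 for Azgp1, 2.25 for Dek and 1 for Nog. It was −6 for Bnc1, −6 for Hsf2bp, −5.75 for Rap1gap2, −4.75 for Nrp2, −4.75 for Trp63, −2.5 for Krt18, −1.75 for Amigo2 and −1 for Acta2. At Acta2 and Nog the difference is a single region that every library of a group shares.

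Single libraries far from the other 3 of their group were found at 9 named genes by Dixon's test, counting gaps of at least 2 regions. Each flagged group held 3 equal whole-number counts and 1 other, a pattern that always passes this test. The usual chance rate of about 1 in 20 groups therefore does not describe these flags, which are descriptive. In SPOPmut_DHT, replicate 2 had 10 called regions at Pecam1 against 12 in each of the others, and replicate 4 had 5 at Cdkn1a against 2. In SPOPmut_EtOH, replicate 1 had 11 at Nfkb1 against 13, replicate 2 had 12 at Thbs2 against 14, and replicate 4 had 8 at Pla2g4e against 11 and 6 at Klf9 against 8. SPOPmut_EtOH replicate 3 had 12 at Ilrun against 10, 28 at Mecom against 26 and 21 at Tmem135 against 19. The causes were not tested.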

How the results depend on the processing

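Counts moved most with the rule for a call. Regions called in at least 3 libraries of one group and at most 1 of the other numbered 5930 gained and 4375 lost, against 3821 and 1617. Genes by covered base pairs gave 1747 higher and 1092 lower calls, and scaling to library totals 1171 lower. With at least 4 regions per gene 428 interactions passed, against 699. A stricter area of 400 called 1505 genes, of which 597 were among the 1633. The exact permutation test at an unadjusted p under 0.05 gave 1047 higher and 526 lower genes.

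Whether replicate numbers pair the samples is not given by the labels and was not settled by correlations between SPOPmut_DHT and SPOPmut_EtOH libraries. Same-numbered libraries had correlations of −0.106, 0.256, 0.195 and −0.261, and differently numbered ones ran between −0.373 and 0.411. With the replicate block 788 genes were called higher and 331 lower, and the Control differences of 44.4 and −30.8 points each reached the smallest p of an exact permutation test on 4 pairs, 0.125.

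With lists of equal length the location differences (DHT minus EtOH, percentage points) were −0.198 near starts, 0.368 in bodies and −0.171 outside, each with adjusted p = 0.0286. Leaving out each library in turn gave 3863 to 4658 gained and 1659 to 2154 lost regions, 1025 to 1386 genes higher, 494 to 735 lower, 670 to 934 interactions, Control differences of 40.5 to 45.5 and −33.8 to −28.0 points, list length differences of −1023 to 2591 peaks, and location differences of −0.677 to 0.0585 near starts, 0.250 to 0.675 in bodies and −0.308 to 0.0023 outside.

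Of 69 called genes picked by the naming rule, 19 kept the call under all alternatives run and 16 lost it without 1 library. One library did so at Esrp1 (SPOPmut_DHT replicate 1, adjusted p = 0.193, limma), Krt18 and Pla2g4e (SPOPmut_EtOH replicate 1, 0.124 and 0.0506) and Rad51b (SPOPmut_EtOH replicate 2, 0.0557), and each of SPOPmut_EtOH replicates 1 and 2 at Ncoa1 (0.0669 and 0.0621). At Gas7 and Grhl2 any of 3 libraries did so, at Azgp1 and Ncam1 any of 4, at Acsl4 any of 5, at Cdk6, Rgs3, Ywhaz and Zfhx3 any of 6, and at Fggy and Foxp1 any of 7, with adjusted p up to 0.18. Under the other alternatives 50 lost it. With the area of 400 these were 27, namely Acsl4, Acta2, Azgp1, Bhlhe41, Cdk6, Dusp1, Esrp1, Fos, Foxp1, Gas7, Grhl2, Hprt, Hsd17b6, Krt18, Lrp6, Ndrg1, Nfkbia, Nog, Notch2, Rgs3, Skil, Spop, Srd5a2, Stard13, Tgfb3, Tmem135 and Ywhaz. Within the body and 10 kb they were 21, with Bhlhe41, Bnc1, Dusp1, Gas7, Grhl2, Kcne4, Lrp6 and Ncoa1 beside 13 that were also lost within 25 kb (Ccnd1, Cd24a, Esrp1, Hrh1, Nfil3, Nfkbia, Ptprc, Rgs2, Smoc2, Thbs2, Wnt5a, Ywhaz and Zfhx3; Smoc2 had 2.25 there, adjusted p = 0.212, and Ccnd1 0). The replicate block took away 24, among them Esr1, Cdh13, Elovl6, Fggy, Foxp1, Rad51b, Smoc2 and Krt18, equal list length 13 (Acta2, Ccnd1, Dek, Foxp1, Hprt, Hrh1, Hsd17b3, Hsd17b6, Lrp6, Ndrg1, Notch2, Spop and Stard13), peaks covering 50% of a region 13, covered base pairs 11, scaling to totals 4 (Cdk6, Nfkbia, Spop and Srd5a2), and merging within 100 bp and the square root 3 each. Signs changed at Lrp6 (1.5, called higher, adjusted p = 0.00913) and Pparg (−2.5, called lower, adjusted p = 0.00064) with the area of 400, and at Bhlhe41 (0.25) and Ywhaz (−1) within the body and 10 kb. Erg, with no difference by count, was called higher by covered base pairs (0.282, log2). The causes were not tested.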
